A study of Homo sapiens with 9 samples.

Results

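The 4 tropomyosin genes (TPM1, TPM2, TPM3 and TPM4) were described together with 6 other genes of actomyosin contraction, namely the alpha-actinins ACTN1 and ACTN4, the myosin light chains MYL6 and MYL9, the myosin phosphatase subunit PPP1R12A and the caldesmon gene CALD1. The 10 genes were chosen by name and not by a measured value, and all 10 were among the 15164 genes tested. Each passed the filter on low values, which removed no gene.

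Tropomyosins are coiled-coil proteins that lie end to end along actin filaments and govern which other proteins, myosin among them, can bind there. Contraction of nonmuscle cells is driven by myosin II, whose regulatory light chain is phosphorylated by several kinases and dephosphorylated by myosin phosphatase. Caldesmon binds actin and tropomyosin and restrains the myosin ATPase, while alpha-actinins crosslink actin filaments in stress fibres and at adhesion sites. PTBP1 is a polypyrimidine tract-binding protein that represses many exons, including alternative exons of TPM1, TPM2 and ACTN1 known from earlier work.

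RNA was sequenced from HepG2 cells, an established human liver tumour line of wild-type genotype per the labels, after transfection with si-PTBP1 (siPTBP1), with si-IGFRIL against the long noncoding RNA IGFRIL (siIGFRIL), or with a scrambled siRNA (siCtrl, si-NC in the sample names). Each group had 3 libraries, 9 in all, and every group was therefore a transfected one. The labels do not say whether the libraries of a group came from separate cultures, and the spread behind each p-value may thus be technical. The time after transfection and the number of siRNA sequences behind each group are not given in the labels. The study asked which genes depend on IGFRIL and on PTBP1, and the comparisons below put each knockdown against siCtrl and the knockdowns against each other.

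Library totals ranged from 23426852 to 27942813 counts. Scaled counts below are counts divided by a TMM factor for each library's depth and composition, and fold changes are log2 ratios of them with 1 added. PTBP1 mRNA checked the siPTBP1 label: its scaled counts were 2092.8 to 2304.3 in siPTBP1, 9994.2 to 10571 in siIGFRIL and 9551.1 to 10142 in siCtrl. The log2 fold change of PTBP1 in siPTBP1 was -2.17 (SE 0.0449, limma adjusted p = 3.3e-17). PTBP1 cannot tell siIGFRIL from siCtrl libraries (0.07, limma adjusted p = 0.65), and IGFRIL itself was not analysed here, so those labels were not checked. Of 20 genes taken as hepatocyte genes, 4 were analysed here (APOE, TF, FGG and CPS1), with summed levels of 1740 to 1790 CPM (the unit of counts scaled to a common library total) in siPTBP1, 2590 to 2930 CPM in siIGFRIL and 2780 to 3070 CPM in siCtrl. CPS1, a urea cycle enzyme, made up nearly all of these sums and was lower in siPTBP1 (-0.75, limma adjusted p = 7.6e-11). The other 3 were higher in siPTBP1 (APOE 1.99, FGG 1.69 and TF 1.27 on the log2 scale, limma adjusted p-values of 0.014 or less), but in siCtrl APOE averaged 1.36, FGG 0.841 and TF 0.196 CPM, low levels for genes that hepatocytes express strongly. With the main transcript in the length correction described below, 3 of these 4 genes were called as higher in siPTBP1 and 0 as lower. CPS1 was thus no longer called as lower. Over all genes 51.2% were called with that correction. Albumin and the rest of the hepatocyte list were not analysed here.

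The tropomyosin genes are alike in their coding sequence, and a stretch of 30 coding bases in which they are most alike is shown to make this visible. Capitals mark the bases that differ from TPM4, each sequence is read 5′ to 3′ on the coding strand, and the coordinates are those of GRCh38 with GENCODE v44.
TPM4, chr19:16086478-16086507, plus strand: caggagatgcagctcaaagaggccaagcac
TPM1, chr15:63059618-63059647, plus strand: caggagatCcaActGaaagaggccaagcac
TPM2, chr9:35685467-35685496, minus strand: caggagatgcagctGaaGgaggccaagcac
TPM3, chr1:154173117-154173146, minus strand: caggaAatCcaActcaaagaAgcTaagcac
Over these 30 bases TPM2 differed from TPM4 at 2 positions, TPM1 at 3 and TPM3 at 5. Over whole coding sequences of the main transcripts, identity ranged from 71.8% (TPM1 and TPM4) to 80.2% (TPM2 and TPM3), and the longest run shared by any pair was 38 bases (TPM1 and TPM2). Among windows of 50 transcript bases, none of those of TPM1, TPM2 and TPM3 was shared with another of the 10 genes, and 2 of the 13321 windows of TPM4 were. TPM4 shared 6.07% and TPM3 4.07% of their windows with some other gene of the annotation, pseudogenes among them (TPM4P2 and TPM4P3 for TPM4, TPM3P5 for TPM3), so a part of their reads could have been assigned elsewhere.

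Levels of different genes were compared per kb of the main transcript. In siCtrl the order by CPM per kb was MYL6 (637 ± 41.9), TPM4 (325 ± 7.18), TPM2 (274 ± 21.0), TPM1 (237 ± 8.15), CALD1 (155 ± 4.63), MYL9 (101 ± 6.52), ACTN1 (100.4 ± 0.605), TPM3 (63.0 ± 2.41), PPP1R12A (19.9 ± 1.45) and ACTN4 (2.02 ± 0.321; SD, n = 3 each). MYL9 and ACTN1 were the only neighbours in this order whose libraries overlapped. ACTN4, which in many epithelial cells is an abundant actin crosslinker, stood lowest of the 10 in each group. In siPTBP1, TPM2 (508 CPM per kb) stood above TPM4 (416 CPM per kb), whereas in siIGFRIL and siCtrl TPM4 stood above TPM2. The order depends on the length used: divided by all annotated exon bases of a gene, TPM2 was highest in siCtrl (102.4 CPM per kb), TPM4 lower (65.1) and TPM1 lower still (19.6), since TPM1 has 1217 bases in its main transcript and 14700 in all its exons together.

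**Figure D1:**
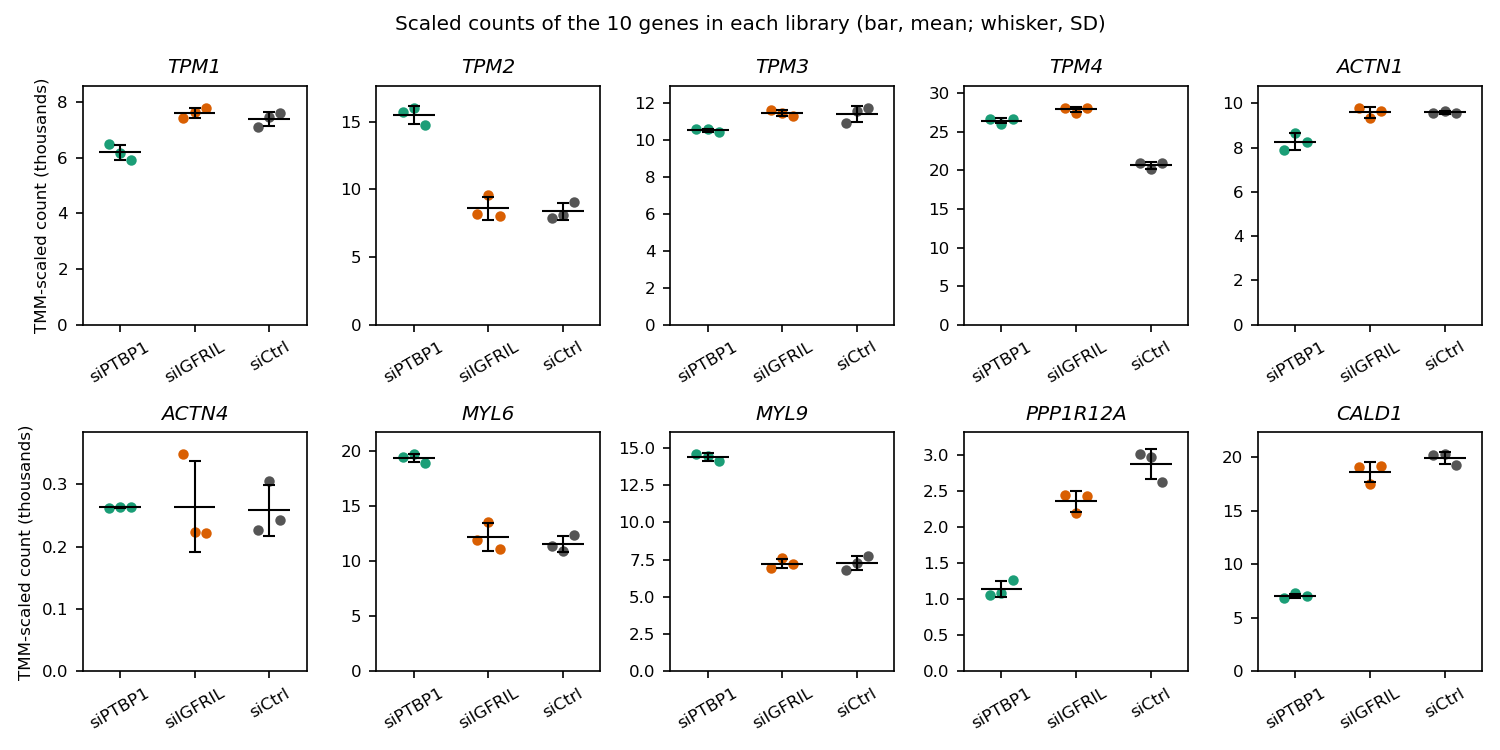
Counts scaled by TMM, from 0 on each vertical axis, for the 10 genes in the 3 libraries each of siPTBP1, siIGFRIL and siCtrl, with the mean as a bar and the SD as a whisker. In siPTBP1 the points of TPM2, MYL6 and MYL9 lie above and those of PPP1R12A and CALD1 below all others. Those of TPM1, TPM3 and ACTN1 also lie below all others, by less. TPM4 lies at 26061 or more in both knockdowns against at most 20963 in siCtrl.

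TPM4 was the single member called upon IGFRIL knockdown. TPM4 encodes a tropomyosin of short, nonmuscle isoforms and lies on chromosome 19 (16067021 to 16103002, plus strand). Its scaled counts were 28121, 27497 and 28093 in siIGFRIL, against 20963, 20145 and 20905 in siCtrl. All 3 siIGFRIL libraries stood above all 3 siCtrl libraries, with an SD of 353 in siIGFRIL and 456 in siCtrl. The log2 fold change of TPM4 was 0.43 (SE 0.0348, a 1.35-fold level), with a limma p-value, adjusted by Benjamini-Hochberg over all 15164 genes, of 1.3e-06. By p it ranked 2 of all genes in this comparison. TPM4 kept this direction and its call under all 22 alternative settings, with log2 fold changes of 0.39 to 0.46 and adjusted p-values of 4.5e-10 to 0.0011. Some of these could move its fold change barely or not at all: no gene was filtered out, and siPTBP1 libraries are not in this comparison. In bulk RNA, more RNA per cell and a larger share of cells that express a gene cannot be told apart, here and in the results below.

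A gene was called where its adjusted p was under 0.05 and its fold change over 1.2. By this rule 1 of the 10 genes was higher and 0 were lower in siIGFRIL. Over all genes 0.468% were called (71), of which 0.277% of all genes were higher and 0.191% lower. At an unadjusted limma p under 0.05 the count of members was 3, the others being PPP1R12A and CALD1, beside 9.91% of all genes (1502). The median log2 fold change of the 10 genes was 0.01, beside -0.0004 over all genes.

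PPP1R12A encodes the myosin-targeting subunit of myosin phosphatase, which brings the catalytic subunit to the myosin light chain, and lies on chromosome 12 (79773563 to 79935460, minus strand). Its scaled counts were 2450.5, 2189 and 2431 in siIGFRIL, against 3009, 2973 and 2630.4 in siCtrl. Every siIGFRIL library lay below every siCtrl library, although siCtrl replicate 3 was nearer to siIGFRIL replicates 1 and 3 than to the other siCtrl libraries. PPP1R12A had a log2 fold change of -0.28 (SE 0.0696), with a limma adjusted p of 0.081, which did not pass the threshold. Without siCtrl replicate 3 it was -0.35 with an adjusted p of 0.015, and with quantile normalization -0.29 with an adjusted p of 0.047, both of which passed. With the length correction described below the log2 fold change of PPP1R12A was -0.25 (adjusted p = 0.0096) with the main transcript and -0.24 (adjusted p = 0.024) with all exons, both under the fold threshold. PPP1R12A is also on a list of genes that the study chose from these libraries together with PTBP1 binding data. Its values here are therefore no independent evidence. The study reported separately, by qRT-PCR, that PPP1R12A mRNA depended on IGFRIL in HepG2 and MHCC97H cells.

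CALD1, on chromosome 7 (134744252 to 134970729, plus strand), had scaled counts of 19074, 17523 and 19187 in siIGFRIL, against 20249, 20285.5 and 19236 in siCtrl. The groups did not overlap, but the gap between siIGFRIL replicate 3 and siCtrl replicate 3 was smaller than the SD of either group (930.2 in siIGFRIL, 595.6 in siCtrl). Its log2 fold change of -0.10 (SE 0.0427) had a limma adjusted p of 0.42.

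For the other 7 genes the siIGFRIL and siCtrl libraries overlapped, and log2 fold changes lay between -0.004 (MYL9) and 0.07 (MYL6), with limma adjusted p-values of 0.76 or more. Scaled counts of MYL6 were 11097 to 13558 in siIGFRIL and 10946 to 12429.6 in siCtrl. Those of MYL9 were 6933 to 7574 in siIGFRIL and 6772 to 7704 in siCtrl. ACTN1 had 9325 to 9805 in siIGFRIL and 9551 to 9662 in siCtrl. The siCtrl range lay inside the siIGFRIL range for ACTN1, and the reverse held for MYL9. Among the other tropomyosins, TPM1 stood at 0.04 (95% interval -0.05 to 0.13), TPM2 at 0.04 (-0.10 to 0.18) and TPM3 at 0.01 (-0.07 to 0.09). Those intervals lie below the log2 fold change of TPM4. ACTN4 had the widest interval, -0.32 to 0.34. Its siIGFRIL replicate 1 held 349 scaled counts and the other siIGFRIL libraries 223 and 222, against 227 to 305 in siCtrl, and the interval holds changes of over 1.2-fold in either direction.

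**Figure D2:**
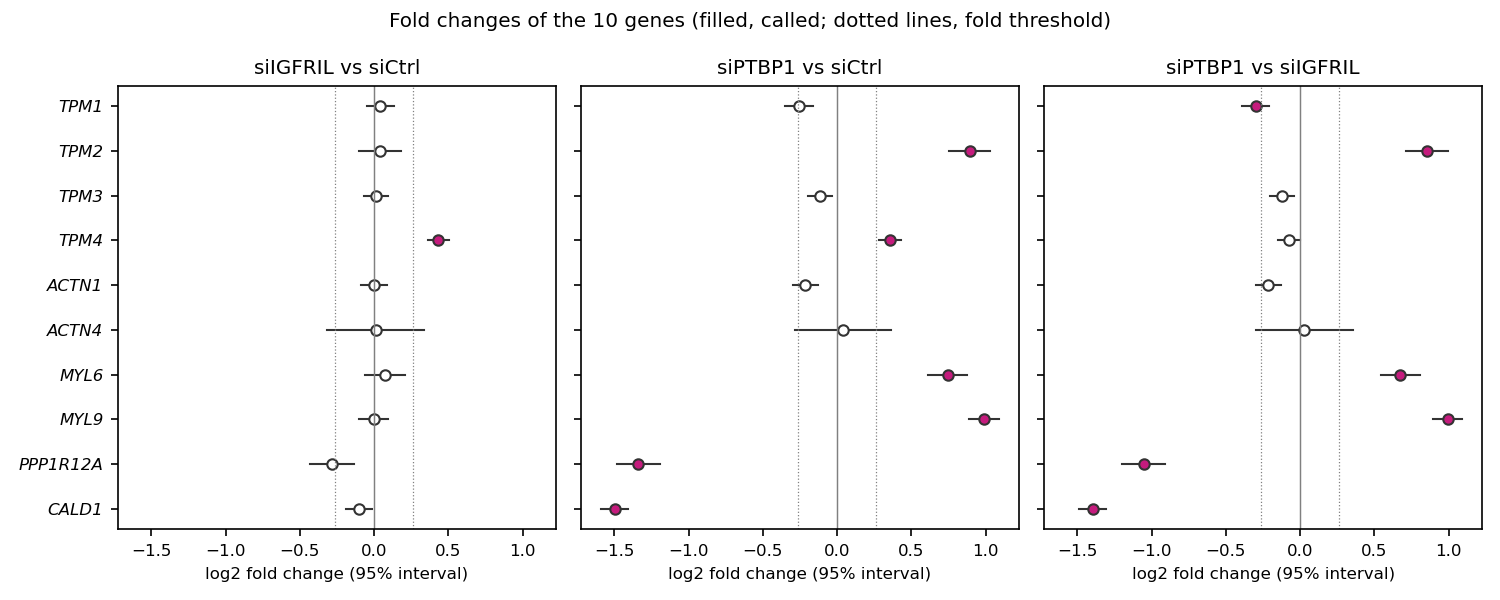
Log2 fold changes (horizontal axis) of the 10 genes with their 95% intervals from limma, in siIGFRIL against siCtrl, siPTBP1 against siCtrl and siPTBP1 against siIGFRIL. Filled points were called, which holds for TPM4 alone in siIGFRIL and for 6 genes in siPTBP1 against siCtrl, with CALD1 (-1.50) and MYL9 (0.99) at the ends.

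PTBP1 knockdown went with called changes in 6 of the 10 genes. TPM2, TPM4, MYL6 and MYL9 were higher in siPTBP1, and PPP1R12A and CALD1 were lower, while TPM1, TPM3 and ACTN1 were lower by less than 1.2-fold. These counts, 4 higher and 2 lower, stand beside 66% of all genes called in this comparison (10009), with 32.2% of all genes higher and 33.8% lower. A share of 6 in 10 is thus near that of all genes and is no result about the 10 genes as a group. At the adjusted p alone 9 of the 10 passed, beside 73.1% of all genes (11089). The median log2 fold change of the 10 was -0.04, beside 0.005 over all genes.

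One property of this comparison bears on each of its values. Fold changes in siPTBP1 fell with the length of the gene's main transcript. With the genes ordered by that length in 10 bins, the bin of the shortest (median 695.5 bases) had a median log2 fold change of 0.75 and the bin of the longest (median 9309 bases) of -0.81, while in siIGFRIL the medians ran between -0.06 and 0.04. For the 10 genes against siCtrl, each value below is therefore given with the median of its length bin. It is also given after a lowess trend on length and GC content was removed in each library. The comparison with siIGFRIL and the pathway genes have corrected values in part and no bin medians. The marker and hepatocyte lists have no bin medians, and of corrected values only counts and medians of each list with the main transcript. All annotated exons of a gene were the first definition of length in that correction, and the main transcript was chosen after the data were seen. Both are given, and neither is taken as the truer one. The part of length in any single gene's change was not tested.

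**Figure D3:**
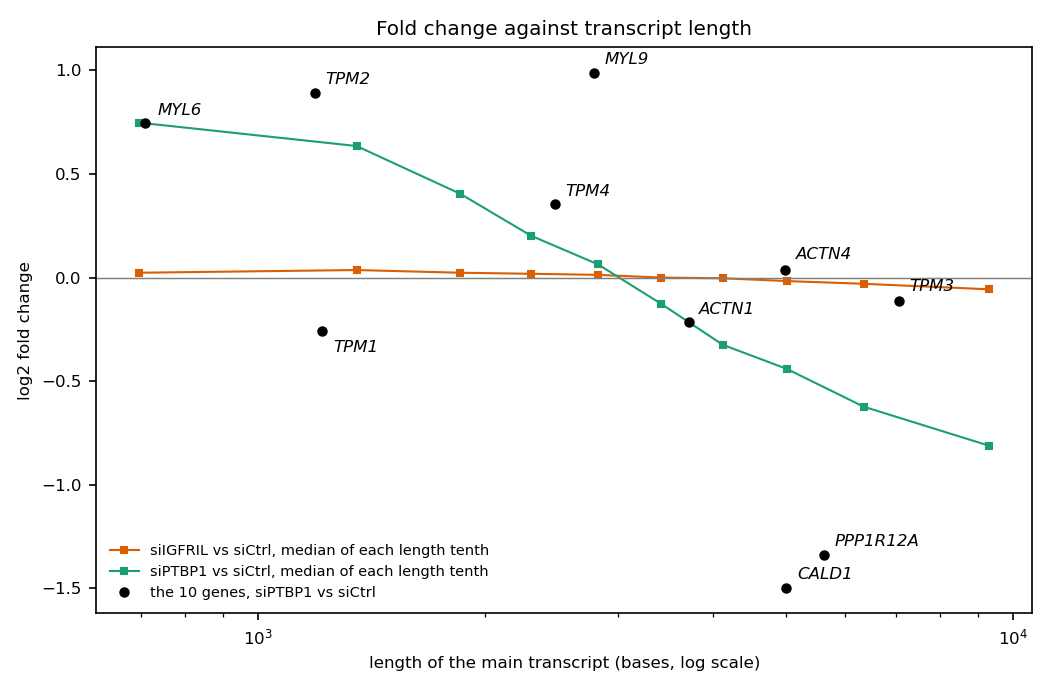
Log2 fold change (vertical axis) against the length of the main transcript in bases (log scale), with the medians of all genes in 10 length bins as lines for siIGFRIL against siCtrl and siPTBP1 against siCtrl, and the 10 genes in siPTBP1 as labelled points. The siPTBP1 line runs down between 0.75 and -0.81. MYL6 lies on it, and CALD1, PPP1R12A and TPM1 lie below it.

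CALD1 had the largest change of the 10. Its scaled counts were 6892, 7279 and 6993 in siPTBP1, against 20249, 20285.5 and 19236 in siCtrl. The highest siPTBP1 library held less than any library of the other groups by a wide margin. CALD1 had a log2 fold change of -1.50 (SE 0.0427, adjusted p = 1.8e-15 by limma), and by p CALD1 ranked 14 of all genes in this comparison. The median of its length bin was -0.44. After correction it was -0.84 with the main transcript and -0.78 with all exons, and CALD1 was called under all 22 alternatives.

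PPP1R12A, the phosphatase subunit, was at 1059.6, 1089 and 1261 scaled counts in siPTBP1, against 3009, 2973 and 2630.4 in siCtrl. No siPTBP1 library came near the siCtrl range. Its log2 fold change was -1.34 (SE 0.0696, adjusted p = 4.9e-12 by limma) in a length bin with a median of -0.62. Corrected values were -0.57 with the main transcript and -0.48 with all exons, and the call held under all 22 alternatives.

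MYL9, which encodes a regulatory light chain of myosin II and lies on chromosome 20 (36541497 to 36551447, plus strand), had 14570.4, 14458 and 14085 scaled counts in siPTBP1, against 6772, 7272 and 7704 in siCtrl. All siPTBP1 libraries stood far above all siCtrl libraries, and the spread in siPTBP1 was 254.1 (SD). The log2 fold change of 0.99 (SE 0.0473, adjusted p = 7.3e-13 by limma) stood in a length bin with a median of 0.06. It was 0.57 after correction with the main transcript and called. With all exons it was 0.21, under the fold threshold.

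MYL6, an essential light chain of myosin II on chromosome 12 (56158346 to 56163496, plus strand), had 19494.5, 19750 and 18976 scaled counts in siPTBP1, against 11390.2, 10946 and 12429.6 in siCtrl. The groups were well apart. Its log2 fold change of 0.75 (SE 0.0617, adjusted p = 1.7e-08 by limma) was within its SE of the median of its length bin, also 0.75. With the main transcript the correction turned the sign, to -0.12 with an adjusted p of 0.0089, and with all exons the value was 0.61. In addition, 18.3% of the MYL6 exon bases lie within other genes (MYL6B and SMARCC2), and whether the counting used strand is not stated.

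TPM2 encodes the beta-tropomyosin and lies on chromosome 9 (35681992 to 35690056, minus strand). It had 15725, 16042 and 14785 scaled counts in siPTBP1, against 7888, 8125 and 9099 in siCtrl. The lowest siPTBP1 library exceeded the highest siCtrl library by far more than the SD of either group (653.5 in siPTBP1, 641.7 in siCtrl). TPM2 had a log2 fold change of 0.89 (SE 0.0657, adjusted p = 7e-09 by limma) in a length bin with a median of 0.64. After correction with the main transcript it was -0.0090 with an adjusted p of 0.84, and with all exons 0.28, which was called. Whether TPM2 was called as higher thus depended on the correction.

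TPM4 had 26631, 26061 and 26651 scaled counts in siPTBP1, against 20963, 20145 and 20905 in siCtrl. The groups did not overlap. This was a log2 fold change of 0.36 (SE 0.0348, adjusted p = 1.7e-08 by limma), and the length bin had a median of 0.20. It was 0.31 after correction with the main transcript and 0.87 with all exons, called in both. The call was lost with no scaling for depth (0.13, adjusted p = 0.16) and with quantile normalization (0.06, adjusted p = 0.17). In siIGFRIL it held under both.

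TPM1, the alpha-tropomyosin gene on chromosome 15 (63042620 to 63071915, plus strand), had 6475, 6163 and 5921 scaled counts in siPTBP1, against 7109, 7476 and 7598 in siCtrl. The siPTBP1 libraries lay below siCtrl without overlap. Its log2 fold change of -0.26 (SE 0.0436, adjusted p = 2.6e-05 by limma) was a 1.196-fold lower level, just short of the fold threshold, which it passed without siPTBP1 replicate 1 or without siCtrl replicate 1 (-0.29 in both). Genes of its length bin had a median of 0.64. The correction gave -0.90 with the main transcript and 0.43 with all exons, both past the threshold and in opposite directions. For TPM1, 22.7% of exon bases lie within other genes, TPM1-AS among them.

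TPM3, on chromosome 1 (154155308 to 154194648, minus strand), differed little in level. Its scaled counts were 10592, 10583 and 10454 in siPTBP1, against 10926, 11570.1 and 11759 in siCtrl. The siPTBP1 libraries were the lower ones, by less than the SD of siCtrl (436.7) at the nearest pair. At -0.11 (SE 0.0386, limma adjusted p = 0.012) the log2 fold change was under the fold threshold. In its length bin the median was -0.62, and after correction TPM3 stood at 0.72 with the main transcript and at 0.65 with all exons, called as higher in both.

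ACTN1, on chromosome 14 (68874128 to 68979440, minus strand), had 7917, 8656 and 8259 scaled counts in siPTBP1, against 9578, 9662 and 9551 in siCtrl. The groups did not overlap. Its log2 fold change of -0.21 (SE 0.041, limma adjusted p = 1e-04) was under the fold threshold, in a length bin with a median of -0.13, and was -0.15 and 0.17 with the corrections. ACTN4, on chromosome 19 (38647649 to 38731589, plus strand), had 262, 264 and 264 scaled counts in siPTBP1, against 227, 305 and 243 in siCtrl. The siPTBP1 libraries lay within the siCtrl range, and the log2 fold change was 0.04 (95% interval -0.29 to 0.36, limma adjusted p = 0.83). The length bin of ACTN4 had a median of -0.44, and corrected values were 0.19 with the main transcript and -0.15 with all exons. Of the ACTN4 exon bases, 14.2% lie within other genes (CAPN12).

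With no scaling for depth, TPM1 (-0.49), TPM3 (-0.34) and ACTN1 (-0.44) passed the fold threshold as lower, and with quantile normalization TPM1 (-0.33) and ACTN1 (-0.33) did.

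**Figure D4:**
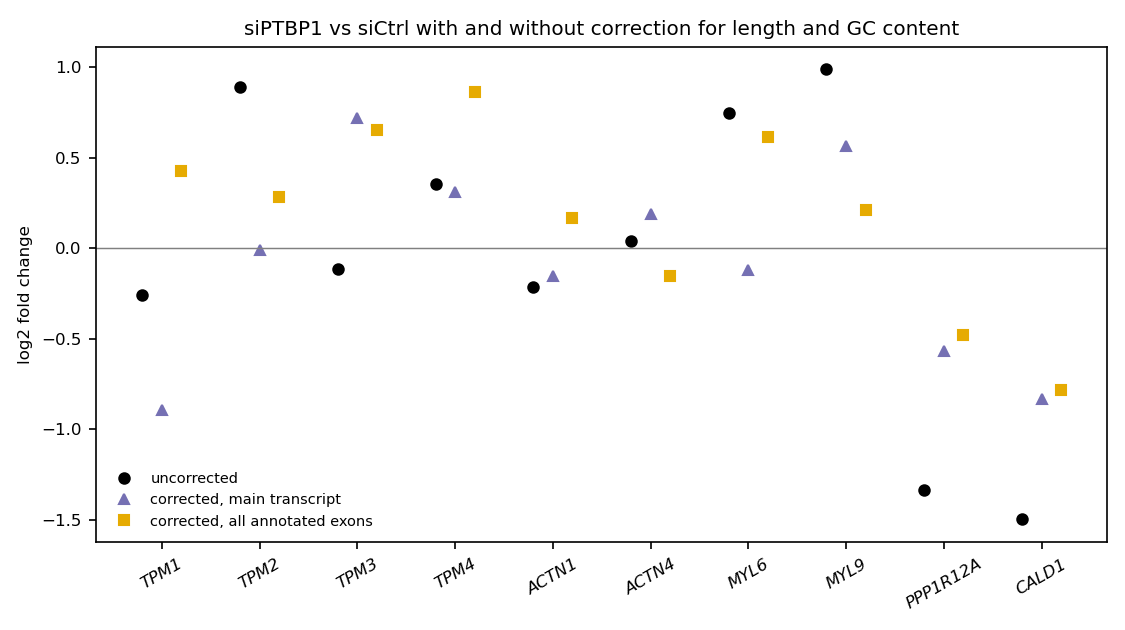
Log2 fold changes (vertical axis) of the 10 genes in siPTBP1 against siCtrl without correction and after a trend on length and GC content was removed, with the length of the main transcript or of all annotated exons. PPP1R12A and CALD1 stay below 0 and MYL9 and TPM4 above 0 in all 3, whereas TPM1, TPM2, TPM3, ACTN1, ACTN4 and MYL6 change sign in at least 1.

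Set directly against siIGFRIL, siPTBP1 had 3 of the 10 genes higher (TPM2, MYL6 and MYL9) and 3 lower (TPM1, PPP1R12A and CALD1). Over all genes 64.6% were called in this comparison, 31.5% higher and 33.1% lower. TPM4 did not pass: it held 26631, 26061 and 26651 scaled counts in siPTBP1, against 28121, 27497 and 28093 in siIGFRIL, with a log2 fold change of -0.08 (95% interval -0.15 to -0.004, limma adjusted p = 0.054). The siPTBP1 libraries were all lower, so the levels of TPM4 in the knockdowns are not shown to be alike. It was called as lower with no scaling (-0.27) and with quantile normalization (-0.40), and as higher (0.40) with all exons in the length correction. PPP1R12A was lower in siPTBP1 than in siIGFRIL (-1.05, SE 0.0696, adjusted p = 1.4e-10 by limma), with 1059.6, 1089 and 1261 scaled counts in siPTBP1 and 2450.5, 2189 and 2431 in siIGFRIL. CALD1 differed by -1.40 (SE 0.0427, adjusted p = 4.8e-15 by limma), and MYL9 by 0.99 (SE 0.0473, adjusted p = 8.7e-13 by limma). TPM2 was higher by 0.85 (SE 0.0657) and MYL6 by 0.67 (SE 0.0617), and the main-transcript correction turned these to -0.0054 and -0.16. With all exons in the correction PPP1R12A (-0.24) and MYL9 (0.26) were no longer called. TPM1 passed the fold threshold here with -0.30 (SE 0.0436, adjusted p = 4.1e-06 by limma), but not when only genes of at least 1 CPM in every library were kept (-0.26). The length correction took TPM1 to -0.90 with the main transcript and to 0.34 (adjusted p = 2.5e-05 by limma) with all exons, called as higher, so its direction rests on the length used. TPM3 was called as higher with both corrections (0.67 and 0.60). Both knockdowns were also set against the same siCtrl libraries, so their values against siCtrl are not independent of each other.

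Other genes of the same machinery were taken from 7 lists, which held 74 genes beside the members, 67 of them among the genes tested. In siIGFRIL none of the 67 was called by limma, 5 had an unadjusted p under 0.05, and their median log2 fold change was 0.003. Over all genes 0.468% were called and 9.91% had such a p. Those with the smallest p in their lists included PPP1CB (0.12, limma adjusted p = 0.28), a catalytic subunit of the phosphatase, and SRF (0.11, limma adjusted p = 0.45), a transcription factor of many actin genes. In siPTBP1, 21 of the 67 were higher and 28 lower against siCtrl, beside 32.2% of all genes higher and 33.8% lower. With the length correction the share of all genes called was 51.2% with the main transcript and 57.9% with all exons. The counts of each list below leave out the members.

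Of 6 nonmuscle myosin II genes beside MYL6 and MYL9, 5 were tested, and in siPTBP1 3 were higher and 2 lower (median log2 fold change 0.50). The light chain genes MYL6B (1.29, SE 0.0665) and MYL12B (0.61, SE 0.0399) were higher and the heavy chain gene MYH10 (-1.03, SE 0.0608) lower, each with a limma adjusted p of 5e-11 or less. MYL12B and MYH10 lost their calls with both length corrections. MYL6B lost its call with the main transcript (0.22) and kept it with all exons (0.77). With the main transcript 0 genes of this list were higher and 0 lower, and with all exons 2 were higher and 0 lower. MYL6B shares exon bases with MYL6.

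Of 9 myosin phosphatase genes beside PPP1R12A, 6 were tested, with 3 higher, 2 lower and 1 not called. PPP1R12B, the paralog of PPP1R12A, was lower (-0.93, SE 0.0812), whereas PPP1R14B, an inhibitor subunit (1.17, SE 0.0544), and the catalytic PPP1CA (0.68, SE 0.046) were higher, all with limma adjusted p-values of 3.4e-09 or less. With the main transcript in the length correction these became 0.050, -0.22 and -0.19 for PPP1R12B, PPP1R14B and PPP1CA, and with all exons -0.16, -0.068 and 0.13, with no call in either, so no direction is given for them.

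Among the actins, tropomodulins, calmodulins and turnover factors, 4 of 15 were higher and 3 lower (2 higher and 5 lower with the main transcript in the length correction, 3 and 4 with all exons). TMOD3, a tropomodulin that caps the pointed ends of tropomyosin-coated filaments, was lower (-1.46, SE 0.0595, adjusted p = 2.3e-13 by limma), as were CFL2 (-0.97, SE 0.0448), a cofilin, and CAP1 (-1.19, SE 0.0702), a cyclase-associated protein that acts with cofilin. These 3 calls held under all 22 alternatives. PFN1, the profilin gene, was at 0.89 (SE 0.0545) and turned to -0.15 with the main transcript in the correction and to -0.11 with all exons.

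Of the crosslinkers and smooth-muscle-type actin binders, 10 of 13 were tested, with 4 higher and 5 lower (1 and 5 with the main transcript in the length correction, 2 and 4 with all exons). The filamin gene FLNA (-0.64, SE 0.0423) and the spectrin gene SPTBN1 (-1.08, SE 0.0609) were lower under every alternative. SPTAN1 (-0.66) and TAGLN2 (0.73) lost their calls with both corrections. The values became -0.026 and -0.18 for SPTAN1 and -0.035 and -0.081 for TAGLN2 (main transcript, then all exons). Of the focal adhesion and stress fibre genes, all 13 were tested, with 4 higher and 7 lower (2 and 5 with either correction). TGFB1I1, an LIM-domain adaptor, was higher (1.32, SE 0.086) and TLN2, a talin, lower (-1.22, SE 0.0837), under all 22 alternatives. PDLIM5 (-0.86) was not called with either correction (-0.059 with the main transcript, -0.058 with all exons). PDLIM7 (1.17) lost its call with the main transcript (0.18) and kept it with all exons (0.61).

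Of the serum response factor and its coactivators, MRTFB was lower (-1.77, SE 0.107, adjusted p = 5.6e-10 by limma) and was so under all 22 alternatives. SRF (0.002, limma adjusted p = 0.97) and MRTFA (0.03, limma adjusted p = 0.58) did not pass the test, although with all exons in the length correction SRF was called as lower (-0.49). SRF binds the CArG box, a site known from many actin cytoskeleton genes, and the promoters of the 10 genes were searched for it on both strands. RefSeq promoters of GRCh38.p14, 250 bases before to 50 bases after each start, were at hand for 9 of the 10 genes, 23 promoters in all, with none for MYL9. A CArG box was found in 1 promoter of TPM4 and in 1 of ACTN1, shown here with the box in capitals because TPM4 was the member called in both knockdowns.
TPM4, chr19:16067340-16067399, plus strand: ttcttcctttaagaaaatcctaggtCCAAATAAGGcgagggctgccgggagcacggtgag
ACTN1, chr14:68977703-68977762, minus strand: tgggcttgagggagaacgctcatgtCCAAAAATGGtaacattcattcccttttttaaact
The box lies 173 to 164 bases before the start in TPM4 and 171 to 162 bases before it in ACTN1, and 1.29% of all 35116 promoters hold one. It was 1 of 6 motifs searched on both strands. A looser CArG-like box, which includes the CArG box, was in 5 of the 23 promoters, of ACTN1, ACTN4, PPP1R12A and TPM4 (7.97% of all promoters). TATAAA was in 2 of the 23 (11.5% of all promoters), GGAATG in 5 (14%), GGGCGG in 16 (45%) and TGACGTCA in 1, of MYL6 (1.85%). Promoters of 1 gene can overlap and hold the same match. These matches describe letters in the windows and not bound sites.

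Genes with the most similar pattern over the 9 libraries were found among 9084 genes of at least 10 CPM by Pearson r of the log2 scaled counts. They were HABP4 (0.976), B4GALT1 (0.968) and GANAB (0.962) for TPM4, ETFB (0.999), ZNF593 and SF3B5 (0.998 both) for TPM2, GNPDA1 (0.997), VPS33A and ICE2 (0.986 both) for TPM1, HCCS (0.976), TTC1 (0.960) and SF1 (0.958) for TPM3, and SEC23IP (0.998), EDEM3 (0.997) and IL13RA1 (0.997) for PPP1R12A. The 9 libraries fall into 3 groups and share their scaling, so these values describe the group pattern.

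Markers of contractile and other cells were read because such cells also express these genes. Of 8 smooth muscle and stellate cell markers, 6 were tested, and their summed level was 68.7 to 71.8 CPM in siPTBP1, 38.8 to 45.3 CPM in siIGFRIL and 41.6 to 44.3 CPM in siCtrl. RGS5 (35.7 CPM in siPTBP1, 5.71 in siIGFRIL and 6.24 in siCtrl) and ACTG2 (11.0 CPM in siPTBP1, 6.43 in siIGFRIL and 6.54 in siCtrl) were higher in siPTBP1, whereas PDGFRB was lower (22.1 CPM in siPTBP1, 28.7 in siIGFRIL and 28.6 in siCtrl, log2 fold change against siCtrl -0.38, limma adjusted p = 0.00019). The defining ACTA2 was at 0.879 CPM in siPTBP1, 1.07 CPM in siIGFRIL and 1.09 CPM in siCtrl, and DES and LMOD1 were under 1 CPM in every library, while MYH11 and CNN1 were not analysed here. Striated muscle markers (5 of 9) summed to 20.6 to 24.9 CPM in siPTBP1, 14.6 to 17.7 CPM in siIGFRIL and 18.4 to 19.3 CPM in siCtrl. The fibroblast markers (4 of 8) summed to 629 to 634 CPM in siPTBP1, 557 to 580 CPM in siIGFRIL and 551 to 577 CPM in siCtrl, nearly all of it COL1A1 and COL3A1. Endothelial markers (4 of 6) summed to 3.54 to 4.73 CPM in siPTBP1, 10.9 to 12.1 CPM in siIGFRIL and 14.5 to 15.9 CPM in siCtrl, most of it CDH5 (-2.22 in siPTBP1 against siCtrl, limma adjusted p = 1.1e-11). Leukocyte markers (2 of 6, CD14 and CD68) summed to 6.46 to 7.15 CPM in siPTBP1, 4.99 to 5.05 CPM in siIGFRIL and 3.94 to 4.58 CPM in siCtrl. In siPTBP1 against siCtrl, 2 leukocyte markers were called as higher without the length correction and 0 with the main transcript in it. Higher and lower counts went from 0 and 1 to 2 and 1 for fibroblast markers. They went from 3 and 1 to 2 and 1 for smooth muscle markers and from 3 and 1 to 3 and 2 for striated muscle markers. Endothelial markers stayed at 0 and 2. Over all genes 66% were called without the correction and 51.2% with it. The part of these markers in the results for MYL9, TPM2 and the other members was not tested.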

How the data were processed

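Per the methods and the submitters' processing notes, libraries were made with a VAHTS mRNA-seq v2 kit, and the authors trimmed reads with Trim Galore 0.6.7 after FastQC, mapped to GRCh38 with Bowtie2 2.2.5 and quantified with RSEM 1.2.8. The values the authors deposited are log2 values. Low values lie on steps of log2(count + 1), rounded to 2 decimals and not scaled for depth. How they were made from RSEM output, whose estimates need not be whole, and which filter left 15164 genes is not stated in the labels or methods. The siIGFRIL columns carry a number that is part of an earlier name of IGFRIL in the paper.

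Counts were returned from the log2 values (rounding moves them by up to 0.347%), scaled by TMM (trims 0.3 and 0.05), given a pseudocount of 1 and put on the log2 scale, which understates the changes of low genes. limma 3.58.1 (trend, robust; statmod 1.5.0) in R 4.3.3 fitted all 9 libraries together. The filter (a value of at least 1 in 3 libraries) removed 0 genes. Thresholds follow the study's methods, with the p adjusted here by Benjamini-Hochberg. Because the unit is log2, no count model was used. The fit was run on simulated data with few changed genes and no length trend, unlike the siPTBP1 comparison, so this does not vouch for that comparison.

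The 10 genes, the lists and the tests were chosen with earlier results of these data known. Besides the members and PTBP1, up to 4 genes per pathway list with the smallest p were named, at a mean of at least 1 CPM, of which the text gives a part, and the result for 1 list is not reported here. The promoter motifs and the length definition were chosen after values were seen. All exons of a gene were the first definition, and the main (Ensembl canonical) transcript replaced it because the exon sum put TPM1 at 14700 bases. Length and GC content came from GENCODE v44 for 13758 genes (90.7%; 162 through older symbols), with a lowess span of 0.4. Python tables, Biopython alignments and matplotlib figures were made from the same values. Alternatives were other scalings and filters, a pseudocount of 0.1, limma without robust estimation, a fit on 6 libraries at a time, a replicate block, corrections for length and GC content, each library left out in turn and no minimum fold change. Some could move a fold change barely or not at all, such as no filter, the replicate block or leaving out a library of a group not compared.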

Additional observations from a re-analysis of the deposited data

How the results depend on the processing

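Of 58 gene results with 22 alternatives each, 29 kept their side of the threshold throughout. Some of these 29 changed sign where neither value was called. A further 15 were counted as reversed, which means a change of sign where the main value, the alternative value or both were called. For some of these only 1 of the values was called. TPM2 in siPTBP1 against siCtrl, for example, went to -0.0090 without a call (limma adjusted p = 0.84). All reversals came with the length and GC correction. With the main transcript, chosen after the data were seen, in siPTBP1 against siCtrl, log2 fold changes were -0.0090 for TPM2, 0.72 for TPM3, -0.12 for MYL6, -0.035 for TAGLN2, -0.15 for PFN1, -0.22 for PPP1R14B, -0.19 for PPP1CA and 0.050 for PPP1R12B, and against siIGFRIL -0.0054 for TPM2, 0.67 for TPM3 and -0.16 for MYL6. With all annotated exons, the first definition, they were 0.43 for TPM1, 0.65 for TPM3, -0.081 for TAGLN2, -0.11 for PFN1, -0.068 for PPP1R14B and -0.49 for SRF against siCtrl, and 0.34 for TPM1, 0.60 for TPM3 and 0.40 for TPM4 against siIGFRIL. The cause was not tested. A sign change was counted as reversed only where a value was called, and 22 of 240 values in siIGFRIL against siCtrl, 17 of 725 in siPTBP1 against siCtrl and 7 of 220 in siPTBP1 against siIGFRIL changed sign without a call.

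In siIGFRIL against siCtrl the count of members called was 2 with quantile normalization and 1 to 2 with each library left out, the added gene being PPP1R12A. The count over all genes, 71, was 36 to 145 with each library left out: 36, 47 and 145 without siCtrl replicates 1, 2 and 3, and 45 without siIGFRIL replicate 1. With no scaling the split over all genes was 3561 higher and 6539 lower in siPTBP1 against siCtrl (4888 and 5121 with TMM), 3649 and 6224 in siPTBP1 against siIGFRIL (4784 and 5016), and 36 and 40 in siIGFRIL against siCtrl (42 and 29). It also moved the median of all genes in siPTBP1 against siCtrl to -0.22.

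Same-numbered libraries deviated from their group means with correlations of -0.129 to 0.129, beside -0.176 to 0.254 for libraries of different numbers. No label marks a shared batch, and the main fit did not pair the samples. Whether libraries of the same number shared a culture or batch was not tested. With the replicate number as a block the counts over all genes were 68 in siIGFRIL against siCtrl, 9995 in siPTBP1 against siCtrl and 9734 in siPTBP1 against siIGFRIL, and no member's call changed with the block alone. The 3 libraries per group and counts summed over isoforms limit what can be seen, and switches between tropomyosin isoforms were not analysed here.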
